A study of Mus musculus with 12 samples.

Results

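Cald1 and Susd1 are a pair of mouse genes that each hold a short cluster of neighbouring CpG sites whose methylation differed between caput and testicular spermatozoa. They are 2 of the 3469 protein-coding genes with a CpG of the deposited count table, and they carry 14 of its 14149 CpGs. Both genes and both clusters were selected on measured values, namely their caput-versus-testicular differences in earlier results from these same counts. The authors named their caput list as made without outliers, so 1 or more caput libraries, perhaps replicate 1, may have had no part in that choice, which was not tested here. Every CpG of the table between the ends of each gene was then taken, 8 at Cald1 and 6 at Susd1. Of these, 7 Cald1 CpGs and 6 Susd1 CpGs lie in the clusters, 1 Cald1 CpG lies outside, and Susd1 has 0 outside.

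Cald1 encodes caldesmon, a protein that binds actin, tropomyosin and calmodulin and takes part in the regulation of contraction in smooth muscle and of the actin cytoskeleton in other cells. Susd1 encodes a membrane protein with sushi domains, a fold found in complement regulators and cell adhesion proteins. Spermatozoa leave the testis and travel through the caput, corpus and cauda of the epididymis, in that order, and their transcription is largely silent on the way.

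RRBS, in which DNA cut at CCGG is bisulfite-treated and sequenced, gives methylation as the percent of reads in which the cytosine of a CpG was protected from conversion. Spermatozoa were isolated from testis, caput, corpus and cauda, with 3 samples for each origin and 12 in all. All samples came from untreated transgenic mice on a B6D2F1 background with the transgenes CAG/su9-DsRed2 and Acr3-EGFP (line RBGS002Osb), aged 10 to 12 weeks, whose sperm carry DsRed2 in mitochondria and EGFP in the acrosome, and cells positive for both signals were collected by flow cytometry. Per the study's methods, cauda spermatozoa were obtained by perfusion through the vas deferens, while testis, caput and corpus tissue was cut up and dissociated. Comparisons with cauda therefore also differ in the way of collection. Each sample was a pool of 4 mice, so the spread between samples is a spread between pools. In such bulk samples, a change in methylation within cells, a change in the mix of cells and DNA bound to cells from outside cannot be told apart. The study proposes that a fraction of caput spermatozoa binds such extracellular DNA, which was not tested here.

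Reads over the sites of the table numbered 945451, 1007992 and 879218 in testicular replicates 1, 2 and 3, and 643941, 869129 and 706411 in the caput replicates. They numbered 429606, 848746 and 616626 in the corpus and 784708, 679576 and 765781 in the cauda replicates. Corpus replicate 1 was thus the shallowest library, with a median coverage of 20 reads per site. Caput replicate 1 stood apart from its group over the whole table. Its methylation had a mean Pearson correlation of 0.864 with the other caput samples across sites, against 0.908 for caput replicate 2 and 0.900 for caput replicate 3, and corpus samples had 0.935 to 0.947 and testicular and cauda samples 0.977 to 0.983 within their groups. These correlations run across CpGs, which are not independent, and carry no p-value. Values are given for each replicate so that they can be read with and without these libraries.

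The Cald1 gene runs from 34598500 to 34775473 on the forward strand of chromosome 6 (GRCm38). Its cluster is the stretch chr6:34755701-34755800, which lies 157250 bp downstream of the gene start, inside a coding exon (34755640 to 34755898 in several transcripts, 259 bp). In GENCODE, 10 of the 18 annotated transcripts span the stretch and it is coding sequence in all 10, with 0 overlapping untranslated exon parts. The exon was also the target of the study's pyrosequencing assay, an independent way to read bisulfite-converted DNA base by base. The 3 primers were matched to the converted forward strand to see which CpGs lie in its amplicon. The outer primers matched with 0 mismatches and the sequencing primer with 1, at the cytosine of the CCGG site. The amplicon, chr6:34755670-34755831, is 162 bp long and holds 8 CpGs, of which 7 are the cluster CpGs of the count table, all downstream of the sequencing primer. Which of them the assay reported, and its values, were not analysed here. The amplicon is shown on the forward strand of GRCm38 with the 7 measured CpGs in capitals, followed by the primers as designed for converted DNA.
Cald1 amplicon: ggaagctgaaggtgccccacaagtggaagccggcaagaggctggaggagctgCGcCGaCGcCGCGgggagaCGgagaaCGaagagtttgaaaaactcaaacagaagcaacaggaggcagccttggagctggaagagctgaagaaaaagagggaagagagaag
forward primer: ggaagttgaaggtgttttataagt
sequencing primer: ggaagtaggtaagaggtt
reverse primer: cttctctcttccctctttttct

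The Susd1 gene runs from 59314683 to 59438633 on the reverse strand of chromosome 4 (GRCm38). Its cluster, chr4:59360901-59361000, lies in an intron, 1906 bp from the nearest annotated exon and 77683 bp from the gene start. The 2 clusters thus differ in place, a coding exon against an intron, and neither is at an annotated start of its gene. The Susd1 stretch holds 9 CpGs, of which 6 are in the count table. It is shown on the forward strand with these 6 in capitals.
Susd1 cluster: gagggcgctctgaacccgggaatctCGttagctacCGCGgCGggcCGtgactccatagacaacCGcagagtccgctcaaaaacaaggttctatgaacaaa

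Both clusters were read from the left end of a restriction fragment. The Cald1 CpGs lie 23 to 49 bases after the CCGG at 34755699 and the Susd1 CpGs lie 10 to 48 bases after the CCGG at 59360916, and all 13 are on the forward strand in the table. The G and C content of the 100-bp stretches was 60% at Cald1 and 56% at Susd1, near the median of 57% over the 998 stretches of this length with at least 3 table CpGs. Clusters of this density were uncommon in the table. Of its 9545 stretches of 100 bp with a CpG, 32 had at least 7 and 55 had at least 6.

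**Figure D1:**
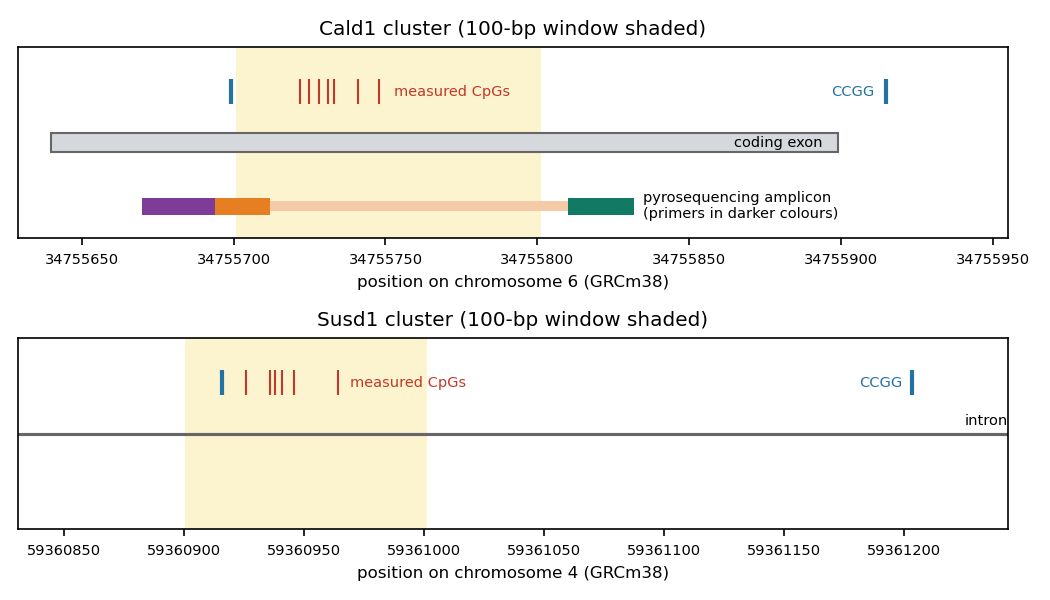
Map of each cluster against its position in bp (GRCm38), with the 100-bp stretch shaded, measured CpGs as red ticks, CCGG sites as blue ticks, and for Cald1 the coding exon and the pyrosequencing amplicon with its 3 primers. The 7 Cald1 CpGs lie inside both the exon and the amplicon, and the 6 Susd1 CpGs lie in an intron.

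The level of a cluster in a sample is the percent of methylated reads, summed over its CpGs. The Cald1 cluster was at 76.7%, 75.3% and 88.4% in caput replicates 1, 2 and 3. It was at 13.5%, 1.86% and 2.18% in the testicular replicates. The caput samples were all high and the testicular samples all low, with no overlap, which is the difference the cluster was chosen for and therefore carries no test here. In corpus replicates 1, 2 and 3 the level was 0%, 10.3% and 20.4%, and in cauda it was 0.345%, 0.662% and 1.52%. The lowest caput sample (75.3%) thus stood above the highest of the other 9 samples, corpus replicate 3 (20.4%). Caput replicate 1, the library that stood apart over the whole table, lay between the other caput samples at Cald1.

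The reads behind these levels were few in caput. Coverage of a Cald1 CpG was 27, 11 and 16 reads in caput replicates 1, 2 and 3, against 18 to 55 in the other samples. Neighbouring CpGs share reads, so Wilson intervals (95%) were taken at the mean counts per CpG rather than at the sum, and they cover counting error only. They ran from 59.2 to 89.4% in caput replicate 1, from 43.4 to 90.3% in replicate 2 and from 64.0 to 96.5% in replicate 3. In corpus replicate 3 the interval was 10.8 to 35.5% and in testicular replicate 1 it was 4.34 to 31.0%. Coverage in caput replicate 2 was 0.268 times that sample's median, the lowest such ratio of the 12 samples.

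The 7 Cald1 CpGs gave nearly the same counts within a sample. In caput replicate 1, 6 of the 7 had 21 methylated reads of 27, and in caput replicate 3, 6 of the 7 had 14 of 16. In testicular replicates 2 and 3 each of the 7 had 1 methylated read, in corpus replicate 2 each had 4, and in corpus replicate 1 each had 0. The deposited counts are per CpG, so whether the same reads carried the methylated CpGs was not tested. Departures were confined to a few CpGs in a few samples. In caput replicate 2, the CpG at 34755728 had 5 methylated reads of 11 (45.5%) where 5 others had 9 of 11 (81.8%), which gave it the lowest caput mean (70.2% ± 22.0, SD, n = 3; 79.3 to 84.4% at the others). In testicular replicate 1, the CpG at 34755741 was at 29.2% and that at 34755731 at 4.17%, against 12 to 12.5% at the other 5. In corpus replicate 3, these same positions were at 27.0% and 25.6%, against 17.9 to 18.4% at the others.

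**Figure D2:**
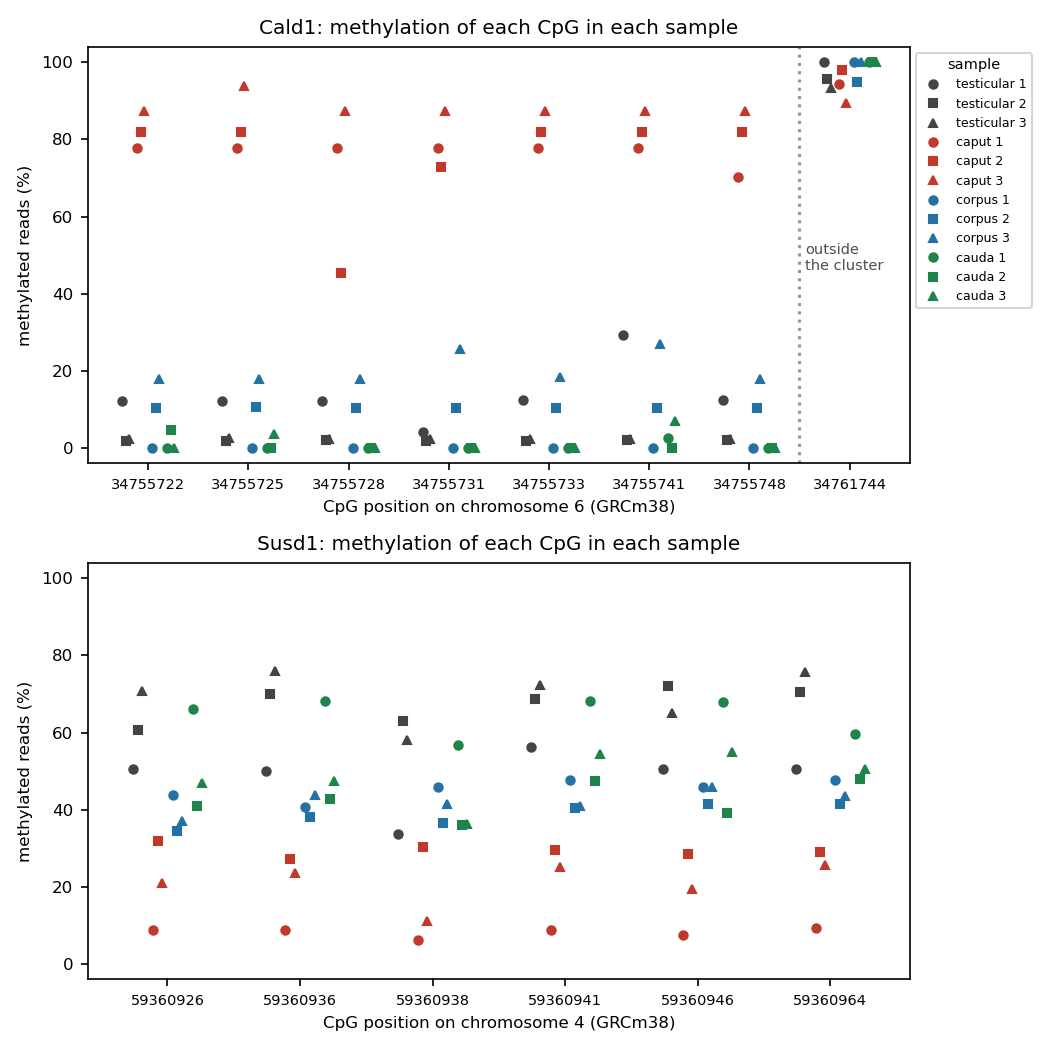
Percent of methylated reads at each CpG of Cald1 (top) and Susd1 (bottom) in each of the 12 samples, with the origin as colour and the replicate as symbol; the dotted line parts the 7 Cald1 cluster CpGs from the CpG at 34761744. Caput points lie apart from all others at the cluster CpGs of Cald1, and at 34761744 all 12 samples lie between 89.4 and 100%.

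As means over samples, the Cald1 levels fell in the order caput (80.1% ± 7.18), corpus (10.2% ± 10.2), testicular (5.83% ± 6.60) and cauda (0.843% ± 0.610, SD, n = 3 each). Corpus and testicular levels differed by 4.39 points, less than the SD of either group, and their samples overlapped. Testicular and cauda levels differed by -4.99 points (cauda minus testicular), less than the testicular SD, although their samples did not overlap. Without replicate 1 of the testicular group that difference was -1.18 points. Without caput replicate 1 the caput mean was 81.9%.

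Each CpG of the table was tested by a logistic regression of its pooled reads on the group, and called at a Benjamini-Hochberg adjusted p under 0.01 over all 14149 CpGs and a difference above 25 points. This test counts reads and ignores the spread between pools, so limma, which uses that spread, was run beside it. A count of 0 by limma does not show that values did not differ. An unadjusted p under 0.05 was common over the whole table, and counts of it are to be read against these shares. By the logistic regression it was met at 48.5% of CpGs in caput, 36.8% in corpus and 22.7% in cauda, each against testicular, and at 36.2% in corpus against cauda. By limma the shares were 17.9%, 9.01%, 4.06% and 9.25%. The share of all CpGs at an adjusted p under 0.01, whatever the difference, is not given here. Counts of CpGs at an adjusted p under 0.01 that were not called are therefore a description. They are not to be read against the smaller shares of called CpGs. Between caput and testicular spermatozoa, 16.8% of all CpGs were called by the logistic regression and 0.0848% by limma. All 7 Cald1 cluster CpGs were among the former and 0 among the latter. Nothing is read from this, since the cluster was chosen by this comparison.

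The corpus and cauda samples took no part in the choice of the clusters, while the testicular samples did. A choice by the caput difference favours low testicular values at Cald1 and high ones at Susd1, so differences, p-values, calls and sample overlaps against testicular spermatozoa are biased by it at both clusters, toward higher corpus and cauda levels at Cald1 and lower ones at Susd1. They are given as a description. Between corpus and testicular spermatozoa the logistic regression called 3.96% of all CpGs (limma 0.0212%) and 0 of the 7 Cald1 CpGs. Differences at the 7 ran from 7.43 to 12.2 points, with 6 of 7 at an unadjusted p under 0.05 by the logistic regression, 0 of 7 by limma and 0 called by limma. Adjusted p-values of the logistic regression ran from 0.00402 to 0.180. At each of the 7 the corpus samples overlapped the testicular ones. Corpus replicate 1 had 0 methylated reads of 18 at each, which allows up to 16.7%. Summed over the cluster, the corpus-minus-testicular difference was 8.17 points, but with corpus replicate 3 left out it was 2.78, and the difference at 34755741 was then -0.300 points in place of 7.58.

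Between cauda and testicular spermatozoa, 0.233% of all CpGs were called by the logistic regression and 0% by limma, which had 574 CpGs at an unadjusted p under 0.05. Neither tool called any of the 7 Cald1 CpGs, and each had 4 of the 7 at an unadjusted p under 0.05. At 4 of the 7, each cauda sample had 0 methylated reads and lay below each testicular sample. Among all CpGs a share of 5.34% had no overlap between these groups. Testicular replicates 2 and 3 had 1 methylated read at each of these 4, and neighbouring CpGs share reads. The lack of overlap thus rests on 1 read in each of these samples. At 34755728, 0 methylated reads of 41, 43 and 28 in cauda replicates 1, 2 and 3 allow up to 7.32%, 6.98% and 10.7%. Testicular replicates 2 and 3, at 1.89% and 2.13% there, lay under each of these limits. The testicular mean there was 5.34% ± 5.77 (SD, n = 3), and the logistic regression gave an unadjusted p of 0.0108 and an adjusted p of 0.0943. The direction at 34755741 turned with 1 library, from -4.64 points with all samples to 0.658 without testicular replicate 1.

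Corpus and cauda spermatozoa were compared directly, and here neither group took part in the choice. The logistic regression called 4.13% of all CpGs (limma 0.0283%) and 0 of the 7 at Cald1, because no difference passed 25 points. Corpus was higher by 9.70 to 14.6 points, with adjusted p-values from 2.28e-05 to 0.0143 by the logistic regression, under 0.01 at 6 of the 7, and an unadjusted p under 0.05 at 7. limma called 0 of the 7, and 0 had an unadjusted p under 0.05. The reads of corpus replicates 2 and 3 carried this difference and corpus replicate 1 did not show it. Over the cluster it was 11.7 points with all samples, 14.6 without corpus replicate 1 and 6.27 without corpus replicate 3. Without corpus replicate 3 the adjusted p-values of the logistic regression ran from 0.0156 to 0.384, so that 0 of the 7 were under 0.01.

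The remaining Cald1 CpG of the table, at 34761744 on the reverse strand, lies in an intron, 5944 bp beyond the end of the cluster. It was at 100%, 95.7% and 93.2% in testicular replicates 1, 2 and 3, at 94.4%, 97.9% and 89.4% in caput, at 100%, 94.9% and 100% in corpus and at 100% in each cauda sample, on 36 to 187 reads. All samples were high, and the caput samples overlapped the testicular and corpus samples but lay below each cauda sample. At so high a level in testicular spermatozoa, this CpG left little room for a rise in caput and cannot show whether the difference of the cluster reached it. It was called in none of the 4 comparisons by the logistic regression, which had an unadjusted p under 0.05 in 2 of them, or by limma, which had 0. The logistic regression gave it an adjusted p of 0.00391 between cauda and testicular samples, for a difference of 3.21 points that is far under 25. On the other side, the nearest table CpG was 206069 bp away, outside Cald1 and nearest to Bpgm. It ranged from 0% in corpus replicate 1 to 100% in caput replicate 1, with means of 64.9% in testicular, 83.5% in caput, 46.1% in corpus and 57.4% in cauda samples.

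The Susd1 cluster differed in the opposite direction. Its level was 8.19%, 29.4% and 20.9% in caput replicates 1, 2 and 3. It was 48.5%, 67.4% and 69.6% in the testicular replicates. Each caput sample was lower than each testicular sample, again the difference for which the cluster was chosen and given without a test. The level was 45.2%, 38.7% and 42.1% in the corpus and 64.5%, 42.3% and 48.3% in the cauda replicates. The highest caput sample (29.4%) lay below the lowest of the other 9 (38.7%, corpus replicate 2). Here caput replicate 1 was the lowest of the 12 samples, and without it the caput mean was 25.1% in place of 19.5%.

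Susd1 was read more deeply than Cald1, at 69 to 137 reads per CpG and sample, between 1.95 and 4.26 times each sample's median. Wilson intervals at the mean counts per CpG were 3.53 to 15.6% in caput replicate 1, 21.5 to 39.3% in replicate 2 and 13.5 to 31.1% in replicate 3. In testicular replicate 1 the interval was 38.8 to 58.3%, and in replicates 2 and 3 it was 59.1 to 74.7% and 59.0 to 78.0%. Caput replicates 1 and 2 did not overlap in their intervals, and testicular replicate 1 lay below the intervals of the other testicular replicates. The corpus intervals overlapped one another, at 34.6 to 55.3%, 28.4 to 48.8% and 31.9 to 54.5%. In cauda, the interval of replicate 1 (55.6 to 72.1%) did not overlap that of replicate 2 (32.9 to 52.2%). The interval of cauda replicate 3 (37.9 to 57.9%) overlapped both. The SD between testicular samples (11.6 points) was larger than that of 96.5% of the 998 stretches with at least 3 CpGs, and the cauda SD (11.5 points) was larger than that of 96.4%. The caput SD was larger than that of 81.3% and the corpus SD than that of 62.5%. At Cald1 the testicular, caput, corpus and cauda SDs were larger than those of 89.0%, 75.6%, 85.7% and 32.0% of stretches.

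**Figure D3:**
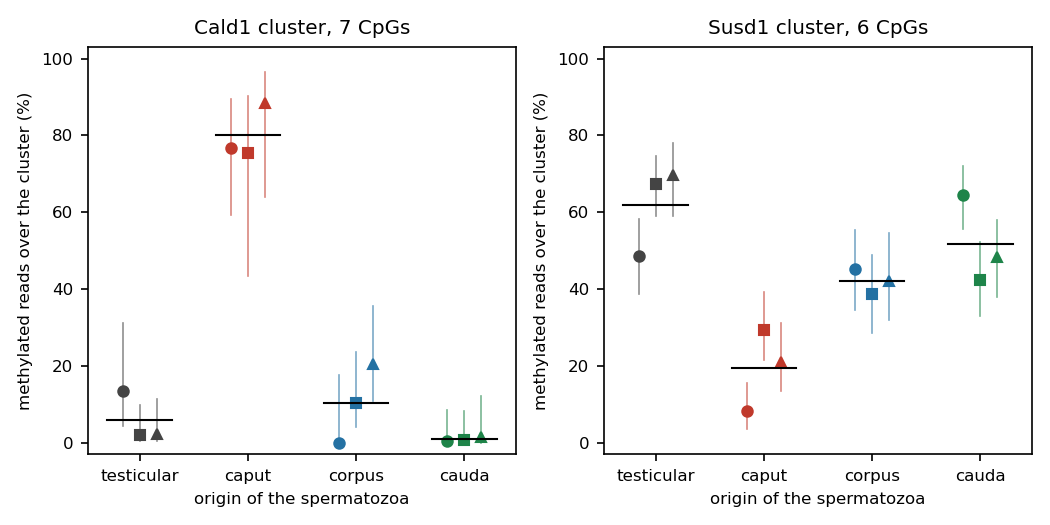
Percent of methylated reads over the 7 Cald1 CpGs (left) and the 6 Susd1 CpGs (right) by origin of the spermatozoa; each point is a sample (circle, square and triangle for replicates 1, 2 and 3), thin lines are Wilson 95% intervals at the mean counts per CpG and black bars are means of 3 samples. Caput lies between 75.3 and 88.4% at Cald1 and between 8.19 and 29.4% at Susd1, apart from the other 9 samples at both.

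As means over samples, Susd1 levels fell in the order testicular (61.9% ± 11.6), cauda (51.7% ± 11.5), corpus (42.0% ± 3.24) and caput (19.5% ± 10.7, SD, n = 3 each). Testicular and cauda samples overlapped, and their difference of -10.1 points (cauda minus testicular) was smaller than either SD. Corpus and cauda samples overlapped as well, with a difference of -9.71 points (corpus minus cauda). Corpus lay below testicular spermatozoa by more than either SD, at -19.9 points, and those samples did not overlap.

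Within the Susd1 cluster, the CpG at 59360938 was at 33.7%, 63.0% and 58.0% in testicular and at 6.25%, 30.3% and 11.1% in caput replicates 1, 2 and 3. The corpus replicates had 45.9%, 36.5% and 41.4% there, and the cauda replicates 56.8%, 36.1% and 36.2%. This CpG was the lowest of the 6 in 7 of the 12 samples, and its median gap to the mean of the other 5 was -6.46 points. The CpG at 59360941, only a few bases away, was at 56.1%, 68.7% and 72.4% in testicular and 8.75%, 29.6% and 25% in caput replicates. Its corpus values were 47.6%, 40.5% and 40.8% and its cauda values 68.3%, 47.4% and 54.3%, and it was the lowest in 0 samples. The order of caput replicates, with replicate 1 lowest, then 3, then 2, was the same at these CpGs and in the level of the cluster.

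The CpGs at the edges of the Susd1 cluster gave similar group means. At 59360926 the means were 60.6% ± 10.1 in testicular, 20.5% ± 11.7 in caput, 38.4% ± 4.71 in corpus and 51.3% ± 13.2 in cauda samples (SD, n = 3 each). At 59360964 they were 65.5% ± 13.2, 21.2% ± 10.5, 44.2% ± 3.14 and 52.7% ± 6.08. Caput and testicular samples did not overlap at any of the 6, and at 22.2% of all CpGs. The logistic regression called all 6 between caput and testicular spermatozoa and limma called 0. Nothing is read from the overlap or the calls, for the reason given for Cald1.

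Between corpus and testicular spermatozoa, where the choice of the cluster favours lower corpus values, 5 of the 6 Susd1 CpGs had corpus samples below each testicular sample, while 11.1% of all CpGs had no overlap in this comparison. Differences of pooled reads ran from -24.96 to -11.4 points, with adjusted p-values from 9.62e-08 to 0.0311 by the logistic regression, under 0.01 at 5 of the 6. The logistic regression nevertheless called 0 of the 6, since no difference went past 25 points, and had 6 at an unadjusted p under 0.05. limma called 0, with 5 of the 6 at an unadjusted p under 0.05 and adjusted p-values from 0.259 to 0.721. The call depended on the library. Without testicular replicate 1, the lowest of its group, 4 CpGs were called, at 59360926, 59360936, 59360941 and 59360964, with differences from -31.7 to -26.0 points. Without corpus replicate 1, 59360941 was called (-25.2 points), and without corpus replicate 3, 59360936 was called (-26.2 points). Without testicular replicate 2 the difference over the cluster was -16.5 points in place of -20.3, that at 59360938 was -3.91 in place of -11.4 (adjusted p = 0.652), and 59360946 had an adjusted p of 0.0318.

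Between cauda and testicular spermatozoa, with the same bias, differences at the 6 Susd1 CpGs ran from -12.4 to -7.71 points and the samples overlapped at each. The logistic regression called 0 and had 6 at an unadjusted p under 0.05, with adjusted p-values from 0.0298 to 0.217. limma called 0 and had 0 at an unadjusted p under 0.05. The difference over the cluster, -9.37 points with all samples, was -17.1 without cauda replicate 1, the highest of its group, and -15.3 without testicular replicate 1, the lowest of its group. In each of these cases 3 of the 6 had an adjusted p under 0.01, with minima of 0.000613 and 0.000791. Without cauda replicate 2 the difference was -4.66 points and without testicular replicate 2 it was -5.60, with 0 of the 6 under 0.01.

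Between corpus and cauda spermatozoa, corpus was lower by pooled reads at the 6 Susd1 CpGs, with differences from -14.7 to -3.05 points. The logistic regression called 0 of them, with adjusted p-values from 0.00413 to 0.697, under 0.01 at 3, and an unadjusted p under 0.05 at 5. limma called 0 and had 0 at an unadjusted p under 0.05. The samples did not overlap at 1 of the 6, at 59360964, and at 11.1% of all CpGs. Without cauda replicate 1 the difference over the cluster shrank to -3.22 points from -10.9, adjusted p-values ran from 0.266 to 0.883, and at 59360938 the direction turned, to 5.12 from -3.05 points. Without corpus replicate 2, or without corpus replicate 3, 0 of the 6 had an adjusted p under 0.01.

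The Susd1 cluster had no other measured CpG of its gene beside it. The nearest table CpGs lay 133757 bp before it, nearest to Ugcg, and 217794 bp after it, nearest to Hsdl2. The first was at 92.4 to 100% in the 12 samples. The second was at 69.6 to 96.9%, with means of 89.4% in testicular, 89.6% in caput, 76.8% in corpus and 89.7% in cauda samples, so neither had the caput level of the cluster.

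Other stretches of the table were ranked by how closely their level followed that of a cluster over the 12 samples, as the mean absolute difference, among 996 stretches of 100 bp with at least 3 CpGs outside both genes. The closest to Cald1 lay in the protocadherin gene Pcdhb1, at a mean absolute difference of 8.41 points. It had 69.9% ± 15.7 in caput, 16.8% ± 17.2 in corpus, 1.76% ± 1.20 in testicular and 5.47% ± 2.88 in cauda samples (SD, n = 3 each). The next were a stretch near the potassium channel gene Kcng1 (8.87 points) and stretches in Wnt5a (9.45) and Shh (10.0), which encode secreted signalling proteins. The fifth was near Sgce (10.5), with a caput mean of 46.9% ± 30.5. In these 5, caput means ran from 46.9 to 70.7% and testicular means from 1.30 to 2.67%.

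The closest to Susd1 lay in Ube2d3, which encodes a ubiquitin-conjugating enzyme, at a mean absolute difference of 9.85 points. Its means were 54.0% ± 7.67 in testicular, 28.5% ± 19.3 in caput, 37.4% ± 2.90 in corpus and 61.0% ± 6.43 in cauda samples (SD, n = 3 each). Stretches in BC051077 (10.0 points) and near the chaperonin gene Cct6b (10.2 points) came next, with caput means of 27.3% ± 5.72 and 34.0% ± 11.1 against testicular means of 52.1% ± 1.82 and 65.1% ± 7.39. The last of the 5, near Foxl2 (14.4 points) and A730009L09Rik (15.6 points), followed Susd1 less closely. The stretch near A730009L09Rik had means of 50.3 to 52.3% in all groups and so lacked the low caput level.

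Among the 55 stretches with at least 6 CpGs, most were little methylated throughout, with all group means below 10% in 34. The caput mean was more than 25 points above the testicular mean in 3, Cald1, Pmaip1 and Gm13146, the latter 2 named after their values were seen. It was more than 25 points below in 1, Susd1. Cald1 and Susd1 are in this count by their choice, so nothing is read from their place in it. Pmaip1 had 66.8% ± 23.3 in caput against 8.32% ± 11.6 in testicular samples, and Gm13146 had 39.1% ± 26.8 against 3.58% ± 4.52 (SD, n = 3 each). No cauda mean was more than 25 points from the testicular mean in the 55, and 2 corpus means were.

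Companions of caldesmon were examined as a list of 32 actin-binding and contractile genes. The table had 14 CpGs in the bodies or within 2 kb upstream of 8 of them, which include Actg2, Myl9, Tpm1 and Vcl. Between caput and testicular spermatozoa the logistic regression called 0 of the 14 (16.8% of all CpGs), with 6 at an unadjusted p under 0.05, and limma called 0, with 1 at an unadjusted p under 0.05. By the logistic regression 4 of the 14 had an adjusted p under 0.01 with too small a difference for a call. The largest of these, named after its values were seen, was at Tpm1, 24.7 points higher in caput (adjusted p = 2.06e-07 by the logistic regression; limma adjusted p = 0.467). It came mostly from caput replicate 1, the library that stood apart, and without it the difference was 5.80 points (adjusted p = 0.0411). Without caput replicate 2 it was 38.3 points (adjusted p = 3.03e-10) and without caput replicate 3 it was 33.3 (adjusted p = 9.9e-09), so that the CpG was called and the count was 1 of 14 in either case. An Actn1 CpG went the other way, at -7.00 points in caput (adjusted p = 4.43e-05 by the logistic regression; limma adjusted p = 0.325). Without caput replicate 1 the Actn1 difference was -4.05 points (adjusted p = 0.0206 by the logistic regression). Without testicular replicate 1 its adjusted p was 0.0116. Over the 14 CpGs the median difference was 0 points, as over the whole table. Between cauda and testicular spermatozoa both tools called 0, with 2 and 0 at an unadjusted p under 0.05.

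In corpus 1 of the 14 CpGs (7.14%) was called higher than in testicular spermatozoa, against 2.69% of all CpGs called higher, and the same 1 was called higher than in cauda, against 2.90% of all. The logistic regression had 4 of the 14 at an unadjusted p under 0.05 against testicular and 6 against cauda, and limma called 0 with 3 in each comparison. The called CpG is the same Tpm1 CpG, at 67045376 on chromosome 9. Tpm1 encodes a tropomyosin, a partner of caldesmon on actin filaments. The CpG was at 76.5%, 17.4% and 30.3% in corpus replicates 1, 2 and 3 and at 0% in each testicular and cauda sample, on 10 to 31 reads, which allow up to 30.0% in the thinnest, cauda replicate 1. It was at 79.2%, 0% and 11.1% in caput replicates 1, 2 and 3. Corpus lay above testicular by 37.0 points (adjusted p = 9.33e-10 by the logistic regression; limma adjusted p = 0.162), in 3 of 3 samples. Without corpus replicate 1 the difference was 25 points (adjusted p = 5.47e-06 by the logistic regression). Against cauda it was also 25 points then (adjusted p = 4.07e-05 by the logistic regression). As 25 points is at the threshold and not above it, the CpG was no longer called. The call thus rests on the shallowest library of the study, while corpus replicates 2 and 3 still lay above each testicular and cauda sample.

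A CpG at Myl9, which encodes a myosin light chain, was not called in corpus but had adjusted p-values under 0.01, and was named after its values were seen. It was at 16.7%, 32.1% and 15.4% in corpus replicates 1, 2 and 3, at 0%, 0% and 6.45% in testicular and at 0%, 0% and 2.78% in cauda, with no overlap. Corpus was higher by 20.9 points than testicular (adjusted p = 0.000258 by the logistic regression; limma adjusted p = 0.328) and by 21.8 points than cauda (adjusted p = 0.00016; limma adjusted p = 0.147). Without corpus replicate 2 these were 13.99 points (adjusted p = 0.0287) and 14.9 points (adjusted p = 0.0165). Without corpus replicate 1 the difference from cauda was 25.5 points (adjusted p = 0.000157), past the threshold. The Actn1 CpG was lower in corpus than in testicular spermatozoa, at -7.20 points (adjusted p = 0.00297 by the logistic regression; limma adjusted p = 0.659), and without corpus replicate 2 or 3 or testicular replicate 1 or 3 its adjusted p was 0.0445, 0.0574, 0.0393 or 0.0112.

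Companions of Susd1 were examined as a list of 32 genes with sushi domains. The table had 14 CpGs at 8 of them, Acan, Bcan, Csmd2, Csmd3, Il2ra, Sez6l, Sez6l2 and Svep1. In caput against testicular spermatozoa the logistic regression called 1 of the 14, which was higher in caput, a share of 7.14% against 11.5% of all CpGs called higher. It called 0 lower, against 5.25% of all CpGs. The count was 2 without caput replicate 2 or any 1 of the testicular replicates and 3 without caput replicate 3, all higher in caput and at Sez6l or Csmd2. The median difference of the list was 8.39 points, against 0 over all CpGs. The CpGs on either side of this median were at Svep1 (58070620, 8.69 points) and Sez6l (112500116, 8.09 points). At 58070620 testicular replicate 1 was the lowest of its group, at 69.1% against 94.1% and 95.2%. At 112500116 it was the highest, at 76.2% against 51.4% and 45.5%. The other Svep1 CpGs, which lay above the median, rested on testicular replicate 1. Without it the difference at 58070617 was 0.908 points in place of 11.7, and at 58070639 it was -0.0311 in place of 10.8. The median without that library was not computed, so nothing is read from it. Several of the 14 CpGs lie together at Sez6l and Svep1 and are not independent. By the logistic regression 10 of the 14 had an unadjusted p under 0.05, and 4 had an adjusted p under 0.01 with too small a difference for a call. Among these 4 was the Sez6l CpG at 112500085, named after its values were seen. It was 18.4 points higher in caput (adjusted p = 2.5e-10 by the logistic regression, limma adjusted p = 0.499), and its samples overlapped. Without caput replicate 1 it was 13.3 points higher (adjusted p = 0.00231 by the logistic regression). Limma called 0 of the 14, and 0 had an unadjusted p under 0.05. In the corpus-versus-testicular, cauda-versus-testicular and corpus-versus-cauda comparisons the logistic regression called 0 of the 14. It had 4, 3 and 4 at an unadjusted p under 0.05, and 4, 2 and 3 at an adjusted p under 0.01. In each of these comparisons limma called 0, with 0 at an unadjusted p under 0.05. Without corpus replicate 1, 2 CpGs at Sez6l were called higher in corpus, both against testicular and against cauda.

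The called CpG lies at 112449085 on chromosome 5, at Sez6l, which encodes a brain-expressed membrane protein. It was at 100%, 26.5% and 30.8% in caput replicates 1, 2 and 3 and at 2.78%, 5.56% and 1.56% in the testicular replicates, with no overlap. Caput replicate 1 was fully methylated on 38 reads. With all samples caput was higher by 53.2 points (adjusted p = 7.09e-21 by the logistic regression; limma adjusted p = 0.347), and without caput replicate 1 by 25.4 points (adjusted p = 3.05e-06), just past the threshold. Much of the size of this difference thus came from the library that stood apart. In corpus it was at 0%, 35.2% and 25% and in cauda at 4.35%, 0% and 6.25%. Corpus was higher than testicular by 22.3 points with all samples, 30.4 without corpus replicate 1 (adjusted p = 9.9e-08 by the logistic regression) and 6.15 without corpus replicate 2 (adjusted p = 0.324). Against cauda these were 21.3, 29.4 (adjusted p = 4.32e-06) and 5.13 points (adjusted p = 0.506).

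The Sez6l CpG at 112449104, named after its values were seen, was at 63.4%, 5.71% and 20.7% in caput replicates 1, 2 and 3, and at 11.1%, 7.89% and 6.15% in the testicular ones. Its corpus values were 0%, 37.0% and 25% and its cauda values 3.85%, 6.25% and 3.85%. Caput was higher than testicular by 24.5 points (adjusted p = 4.61e-06 by the logistic regression; limma adjusted p = 0.605). It was 4.59 points without caput replicate 1, and past the threshold without caput replicate 2 (37.8), caput replicate 3 (28.9) or testicular replicate 1 (25.6). Corpus was higher than testicular by 18.5 points with all samples, 26.9 without corpus replicate 1 (adjusted p = 4.09e-05) and 1.18 without corpus replicate 2. Against cauda these were 21.9, 30.3 (adjusted p = 2.17e-06) and 4.55 points.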

How the data were processed

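RRBS was done on 12 samples of sorted spermatozoa. Per the submitters' processing notes and the study's methods, the authors trimmed reads with Trim Galore 0.4.1, aligned them to GRCm38 with Bismark 0.16.1 and compared groups in methylKit. The deposited count table gives, per CpG and sample, raw counts of total coverage and of its methylated and unmethylated reads; every CpG had at least 10 reads in every sample and all 14149 lie on a CpG of GRCm38. The authors' lists of differing sites and regions hold differences, p-values and q-values, and no value from them was used in the results.

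The members and lists were chosen with earlier results of these data known. Percent methylation was 100 times methylated reads over coverage. Each CpG was tested by a logistic regression on pooled reads (likelihood-ratio test, Benjamini-Hochberg adjustment over all CpGs) and by limma 3.58.1 in R 4.3.3 on the log2 ratio of methylated to unmethylated percent with a pseudo-percent of 1. Both were tested on simulated data. P-values measure reads or the spread between pools. Where 0 reads were methylated, 3 reads of the coverage give the upper limit. Python 3.11.15, numpy 2.4.6, pandas 2.3.3, scipy 1.17.1, pysam 0.24.0 and matplotlib 3.10.9 were used, with genes from GENCODE M21. Primers were matched within 30 kb of the Cald1 cluster.

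All CpGs of both genes were named. Other stretches were named as the 5 most alike to each cluster. List CpGs were named where called or, at Tpm1, Myl9, Actn1, Csmd2, Svep1 and Sez6l, short of a call. The table has 0 CpGs in the other 8 leading regions of the study, which were not analysed here. Alternatives were limma, a coverage of at least 20 reads, a replicate block, the mean of sample percents, caput replicate 1 alone and each replicate left out.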

Additional observations from a re-analysis of the deposited data

How the results depend on the processing

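Over the whole table, limma called 12 CpGs between caput and testicular, 3 between corpus and testicular, 0 between cauda and testicular and 4 between corpus and cauda spermatozoa, in place of 2377, 560, 33 and 585 by the logistic regression. In caput it called 0 CpGs of the Cald1 and 0 of the Susd1 cluster, in place of 7 and 6. With at least 20 reads in every sample the counts over the table were 1384, 176, 15 and 202, with fewer CpGs tested (8133, 5865, 9443 and 5605). The Cald1 cluster has no value under that minimum in comparisons with caput or corpus, since caput replicates 2 and 3 and corpus replicate 1 had fewer reads there.

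With each replicate left out in turn, the counts ran from 1678 to 2757 for caput, 558 to 683 for corpus, 33 to 63 for cauda, each against testicular, and 595 to 697 for corpus against cauda; cauda had 63 without cauda replicate 1 and 60 without testicular replicate 1. The corpus count at the Susd1 cluster ran from 0 to 4.

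Replicate numbers did not pair the samples: correlations of same-numbered deviations ran from -0.121 to 0.0598, and each sample was closest to its own number in corpus against cauda alone. With a replicate block the counts were 2376, 560, 32 and 583, and no call at either cluster changed.

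Of the alternative values, 207 stayed within set bounds, 10 counts were lower and 5 higher. For a count of calls the bound was at most 1.5 times. For a difference over a cluster it was a move of less than the larger SD between samples. Many of the 207 are counts of 0 that stayed at 0. Others are cluster calls in caput, which follow from the choice of the clusters. The tally is therefore no measure of robustness. Each difference over a cluster kept its direction. Among the 207, that of Susd1 in corpus against testicular went past 25 points, to -26.3 without testicular replicate 1 from -20.3. At single cluster CpGs, 3 of 234 differences with a library left out turned their sign, to -0.300 points at 34755741 (corpus against testicular, without corpus replicate 3), 0.658 at the same CpG (cauda against testicular, without testicular replicate 1) and 5.12 at 59360938 (corpus against cauda, without cauda replicate 1). Cald1 was read at 11 reads in caput replicate 2.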
